A study of Mus musculus with 26 samples.

Results

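Clustered replication histone genes encode the bulk histones that package newly copied DNA. In these data they were the genes whose name began with Hist1h, Hist2h, Hist3h or Hist4 and whose biotype was protein coding, and they were followed by Ensembl gene identifier into the lung table. There were 67 such genes among the 54375 genes of the monocyte table, the 54863 of the SPM table and the 57186 of the lung table, and all 67 were listed in each. By histone class there were 6 linker histone genes (H1), 18 H2A, 18 H2B, 12 H3 and 13 H4 genes. On mouse GRCm38, 54 lie in the Hist1 cluster on chromosome 13, 10 in the Hist2 cluster on chromosome 3, 2 in Hist3 on chromosome 11 and 1, Hist4h4, on chromosome 6.

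The study compared mice without ACKR2, an atypical chemokine receptor that scavenges inflammatory CC chemokines, with wild-type (WT) mice. RNA was sequenced from FACS sorted bone marrow monocytes, small peritoneal macrophages (SPMs) and MHCII negative lung macrophages. There were 4 WT and 4 ACKR2-/- samples of monocytes, the same numbers of SPMs, and 5 WT and 5 ACKR2-/- samples of lung macrophages. All mice were naïve females, without treatment in either genotype, and the stated age for the study was 8 to 10 weeks. The WT mice were C57BL/6J animals bought from a supplier and the ACKR2-/- mice, which lack the receptor in all cells, were bred in-house, so that genotype and colony cannot be told apart. Cells of 5 mice were pooled in each monocyte and SPM sample. How many mice went into a lung sample is unknown here, so p-values measure the spread between these samples.

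Replication histone genes are transcribed when cells enter S phase, and their mRNAs are the best known animal mRNAs without a poly-A tail. Each ends shortly after a conserved stem-loop that is bound by the stem-loop binding protein SLBP, and the mRNA is destroyed when replication stops. Some of these genes also give longer, polyadenylated mRNAs in cells that have stopped dividing or are differentiating. H2A, H2B, H3 and H4 form the core around which DNA is wound, and H1 binds the DNA between cores.

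These libraries were made from poly-A RNA, so values below describe the histone transcripts that such a library captures and not the whole histone mRNA pool. A match to the 16-base histone stem-loop consensus was found after the coding sequence in an annotated transcript of 46 members. It was not found in the annotated transcripts of the other 21. The loops of members that carry the results are shown with their flanking bases, 5′ to 3′ on the gene's strand, with the stem-loop in capitals:
Hist1h4d: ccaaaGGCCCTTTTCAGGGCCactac
Hist1h2ao: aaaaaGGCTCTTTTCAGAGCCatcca
Hist1h2ae: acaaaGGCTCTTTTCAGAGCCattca
Hist1h1c: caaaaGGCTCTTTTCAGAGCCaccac
Hist1h4m: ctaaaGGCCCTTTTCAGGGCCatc
Hist1h4n: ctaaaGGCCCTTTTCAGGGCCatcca
Hist1h3g: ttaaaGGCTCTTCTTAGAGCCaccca

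The loop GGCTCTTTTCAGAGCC was the commonest, in 26 members of the classes H1, H2A, H2B and H3. The loop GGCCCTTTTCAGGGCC stood in 7 members, all of class H4. In 23 members the annotated gene model ended at most 74 bases past the loop, and in another 23 it ran on for 108 to 4884 bases. Hist1h4d belonged to the second kind, with 770 bases after a loop at chr13:23581950-23581965, plus strand. Hist1h1c had 840 bases after its loop and Hist1h2ae 151. Hist1h2ao and Hist1h4m belonged to the first kind, with 31 and 3 bases.

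Many members are near-identical copies of each other. Of all 150-base stretches of a member's transcripts, 150 bases being the read length, a median of 75.6% over the 67 members were in no other gene, 14 members were wholly unique and 21 were under 50% unique. Only 8.46% of the stretches of Hist1h2ao were unique, most of the rest being shared with Hist1h2ap. Hist1h4m was 14.2% and Hist1h4n 22.8% unique, each sharing most with the other. Hist1h4d was 100% unique. Values of members under 50% unique are uncertain, since reads from copies may have been divided or dropped in counting.

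Promoters from RefSeq (GRCm38.p6), 250 bases before to 50 after the start, were matched for 62 of 67 members and searched on both strands for the TATA box core TATAA, the CCAAT box and the octamer ATTTGCAT. TATAA was in 49 of 62 members' promoters and in 25.5% of all 27025 promoters. CCAAT was in 53 of 62 members against 37.9% of all promoters, in all 50 of classes H1, H2A, H2B and H3 and in 3 of 12 of class H4. ATTTGCAT was in 13 of 62 members against 1.75% of all promoters, and those 13 were 7 H2A and 6 H2B genes. The members stand close together, and 12 H2A genes lay head to head with an H2B gene on the other strand, with 176 to 306 bases between their starts. The 250 bases before the start are shown for Hist1h4d, the member called between genotypes, and for Hist1h2bg, whose window reaches past the start of its divergent neighbour Hist1h2ae, with matches to these motifs in capitals:
Hist1h4d, chr13:23581318-23581567, plus strand: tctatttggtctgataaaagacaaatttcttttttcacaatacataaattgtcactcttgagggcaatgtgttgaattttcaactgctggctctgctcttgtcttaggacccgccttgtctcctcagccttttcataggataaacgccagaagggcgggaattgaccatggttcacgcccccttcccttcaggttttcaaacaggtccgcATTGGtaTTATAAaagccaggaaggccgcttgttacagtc
Hist1h2bg, chr13:23571150-23571399, plus strand: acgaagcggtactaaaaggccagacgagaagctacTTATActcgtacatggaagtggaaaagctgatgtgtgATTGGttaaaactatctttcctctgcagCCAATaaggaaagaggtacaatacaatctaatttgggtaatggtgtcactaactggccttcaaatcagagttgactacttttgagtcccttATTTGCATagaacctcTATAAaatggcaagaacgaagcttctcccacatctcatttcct

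The Hist1h2bg window holds the octamer, and TATAA and CCAAT each on both strands. Hist1h4d holds TATAA on both strands, overlapping in the stretch TTATAA, and a CCAAT on the other strand (ATTGG). A match describes letters in a window and not a bound factor.

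A monocyte library had 15450670 to 19218213 counts on genes, an SPM library 12781144 to 35400034 and a lung library 19950019 to 29770252. Monocyte markers summed to 5010 to 9569 CPM in the monocyte libraries, and macrophage markers to 17282 to 35599 CPM in SPMs and 7490 to 23482 CPM in lung macrophages. Progenitor cell markers summed to more than monocyte markers in the monocyte libraries, at 15424 to 30108 CPM in WT and 9905 to 24892 in ACKR2-/-. They were at 33.1 to 203 CPM in SPMs and 18.6 to 197 in lung macrophages. The part of progenitor cells in the member values of monocytes was not tested. The targeted gene Ackr2 had 0 counts in all 8 ACKR2-/- monocyte and SPM libraries, 5 to 9 in WT SPMs, and 0 in 3 of 4 WT monocyte libraries. In the lung it had 150 to 469 counts in WT replicates 1 to 4 but 0 in WT replicate 5, and 7 to 50 in the ACKR2-/- libraries, so the library labelled WT replicate 5 did not match its label by this gene. That library and ACKR2-/- replicate 4 also had epithelial marker sums of 484 and 287 CPM against 6205 to 19379 in the other 8 lung libraries. Among ACKR2-/- monocytes, T cell markers summed to 72.1 to 129 CPM against 4.23 to 5.41 in WT, and 9 of 9 tested markers were called higher, with Cd3d, Trbc2, Cd2, Lck and Trbc1 of smallest p. Neutrophil markers summed to 19023 to 65782 CPM there against 47880 to 102895 in WT, with 0 of 10 called. The progenitor marker Cd34 and the NK cell marker Klre1 were also called higher there and Alox15, in the list for large peritoneal macrophages, lower. None of the other lists had a called gene in any cell type.

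The members took a small share of the counts in every library, and that share was highest in monocytes. It was 0.0983% ± 0.0122 (SD, n = 4) of all counts in WT monocytes and 0.110% ± 0.0192 (n = 4) in ACKR2-/- monocytes. In SPMs it was 0.0244% ± 0.00432 (n = 4) in WT and 0.0175% ± 0.00396 (n = 4) in ACKR2-/-. In lung macrophages it was 0.0323% ± 0.00597 (n = 5) in WT and 0.0324% ± 0.00705 (n = 5) in ACKR2-/-. The ranges of these shares overlapped between genotypes in each cell type. Summed in CPM, the members did not overlap in SPMs, at 234 to 284 CPM in WT and 130 to 232 in ACKR2-/-, a narrow gap. The H2B share did not overlap there either, at 0.0110% to 0.0133% and 0.00517% to 0.00940%. Hist1h2bc, which overlapped between genotypes, made up most of the H2B counts in SPMs. Without the 2 members of highest count the SPM shares overlapped, at 0.00822% to 0.0169% in WT and 0.00691% to 0.0105% in ACKR2-/-. Such sums were made for all members and for each class in each cell type. No test was made of a sum over members. Fewer cells of a kind, such as cells in S phase, and less RNA per cell cannot be told apart in bulk samples.

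**Figure D1:**
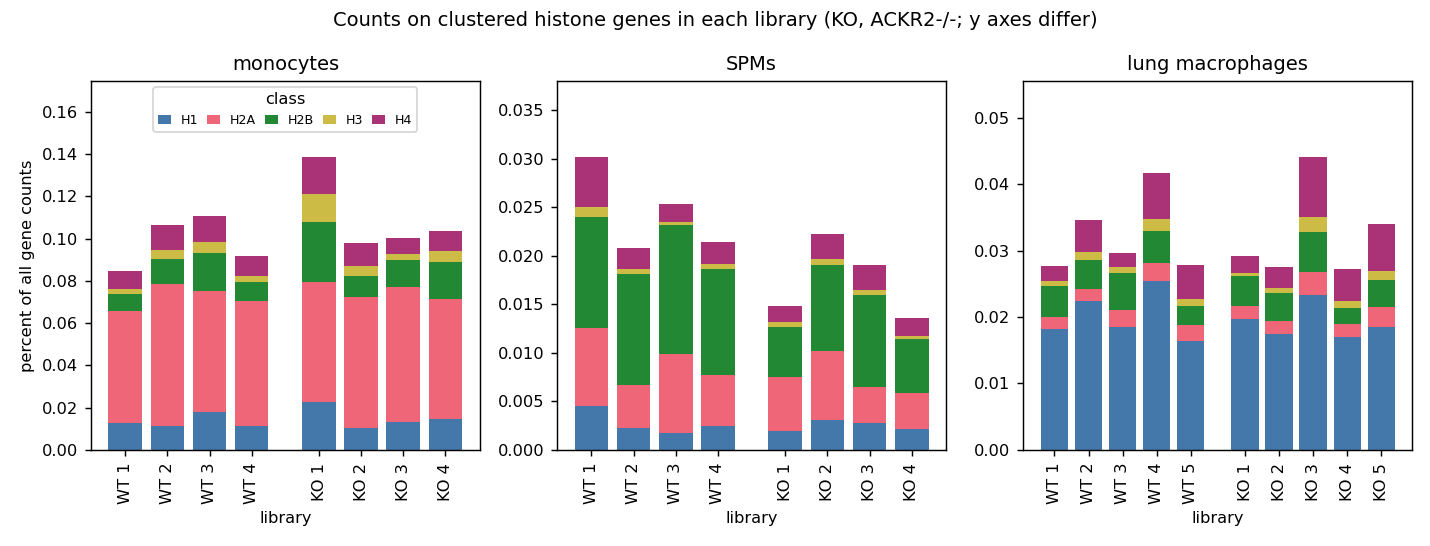
Percent of all gene counts that fell on the 67 members in each of 26 libraries, stacked by histone class, with an axis for each cell type. H2A made the largest block in monocytes, H2B in WT SPMs and H1 in lung macrophages, and ACKR2-/- monocyte replicate 1 stood highest at 0.138%.

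Each cell type was led by a different class. H2A took 0.0592% ± 0.00610 (SD, n = 4) of counts in WT monocytes, against 0.0133% ± 0.00315 for H1, the next class. In WT SPMs H2B led with 0.0118% ± 0.00102 (n = 4), followed by H2A with 0.00646% ± 0.00191. In WT lung macrophages H1 led with 0.0202% ± 0.00364 (n = 5), and H2A fell to 0.00224% ± 0.000438. These are shares of counts and are not corrected for gene length.

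A few genes made up most of each total. Hist1h2ao held 23.1% to 47.3% of all member counts in monocyte libraries and Hist1h2ap 5.99% to 12.9%. In SPMs Hist1h2bc held 26.6% to 48.2%, and Hist1h2ao 8.90% to 23.0%. In lung macrophages the linker histone gene Hist1h1c alone held 40.6% to 63.1%. Without the 2 members of highest count in each cell type, the shares in WT libraries were 0.0464% of counts in monocytes, 0.0105% in SPMs and 0.0111% in lung macrophages.

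Per kilobase of exon, WT monocytes had Hist1h2ao at 908 ± 163 CPM per kb (SD, n = 4) and Hist1h2ap at 225 ± 25.3. The next were the H2B gene Hist1h2bg at 69.5 ± 48.0, Hist1h4d at 50.1 and Hist1h1c at 40.5 ± 14.5. Hist1h1b, an H1 gene, stood at 36.3 CPM per kb, Hist1h2bj (H2B) at 29.8, Hist1h2ae at 29.7 and Hist1h4i (H4) at 24.6. From here down the values are those of the 2 members of each class with the highest mean over both genotypes, and not of every member in order. The leading H3 genes were far lower, with Hist1h3d at 9.95 ± 4.23 and Hist1h3g at 9.35. Hist1h2bg overlapped Hist1h4d and Hist1h1c within its spread between replicates.

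In WT SPMs the order was different. Hist1h2bc had 93.4 ± 21.4 CPM per kb (SD, n = 4) and Hist1h2ao 81.1, values that overlapped between replicates. Hist1h2ap followed at 19.3, Hist1h1c at 10.3 ± 1.77, Hist1h4c (H4) at 8.07, Hist1h4d at 6.96 ± 3.85, Hist1h2ae at 6.76 ± 0.849, Hist1h2bg at 6.67 and Hist1h4i at 6.34. The second H1 gene by level, Hist1h1e, stood at 3.58. The leading H3 genes Hist1h3d and Hist1h3a stood at 2.12 and 2.06.

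In WT lung macrophages Hist1h1c had 115 ± 19.3 CPM per kb (SD, n = 5), above Hist1h2bc at 25.6 ± 8.40. Hist1h4c stood at 11.6, Hist1h2bg at 9.07, Hist1h4i at 8.42 ± 2.99, Hist1h4d at 7.94 ± 3.89, Hist1h4m at 7.76, Hist2h2ac (H2A) at 6.79 and Hist1h3a at 6.10. Hist1h2ap stood at 5.68 ± 3.22, Hist2h2aa2 (H2A) at 5.43 and Hist1h1e at 5.34, and the second H3 gene, Hist1h3e, at 3.79. The SDs of Hist1h4c (5.64) and Hist1h4m (4.04) were larger than the difference between them.

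**Figure D2:**
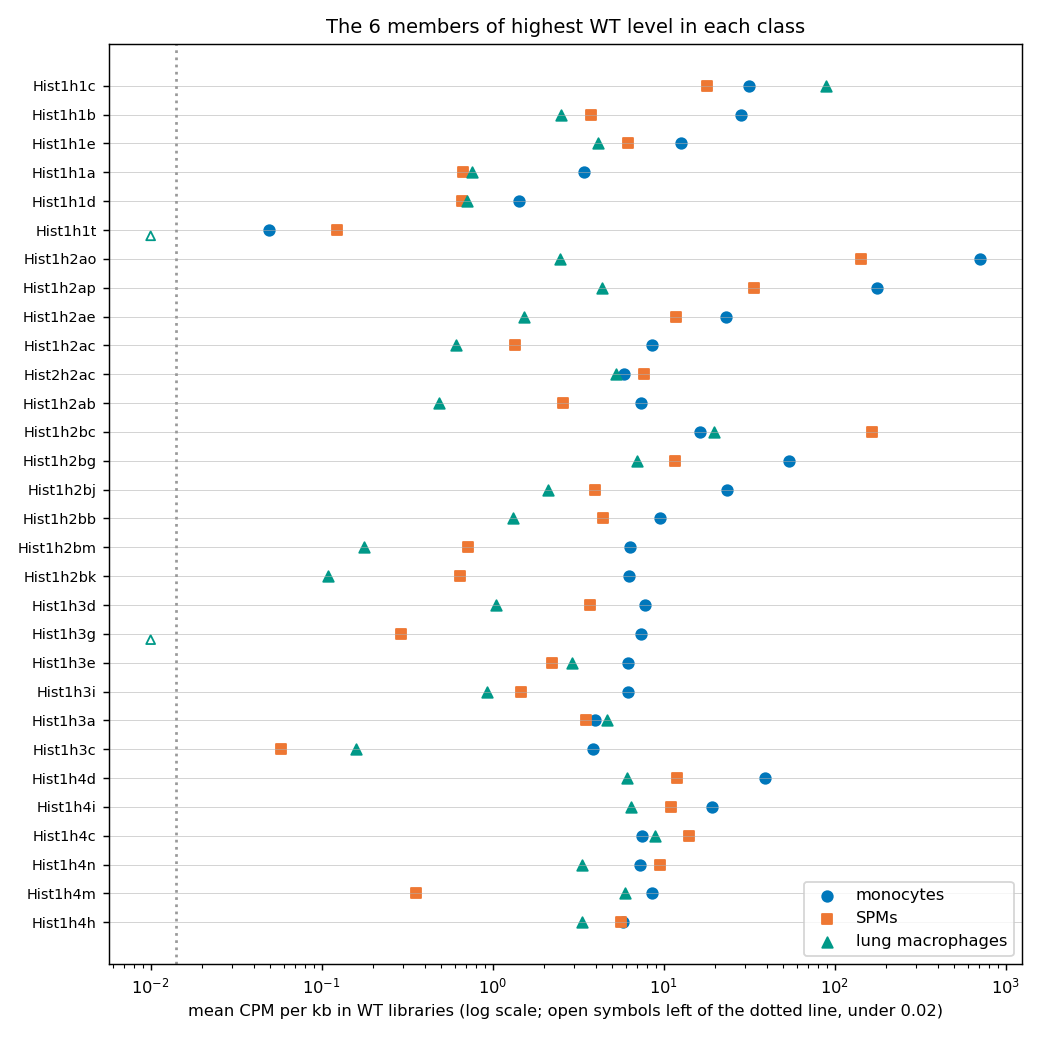
Mean CPM per kb of exon in WT libraries (log axis) for the 6 members of highest level in each class, on the common scale of the fit of all 26 samples. Most H2A and H2B genes stood highest in monocytes, whereas Hist1h2bc stood highest in SPMs and Hist1h1c in lung macrophages.

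Members known for expression in testis were at or near 0. Hist1h2aa and Hist1h2ba had 0 counts in all 26 libraries, which allows up to 0.264 CPM, the value of 3 counts in the shallowest library. Hist1h1t had 8 counts over the monocyte libraries, 6 over SPMs and 1 over lung macrophages. Altogether 60 members had a count in some monocyte library, 60 in some SPM library and 64 in some lung library. Hist2h2aa2, with 0.00% unique stretches, and Hist2h3b, with 26.3%, had 0 counts in every monocyte and SPM library and 45 to 104 and 13 to 47 counts per lung library, respectively. The lung table has 5 summary lines that the other tables lack, so copies may have been counted differently in it, and cell type, table and sort cannot be told apart here.

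Levels were then compared between the WT groups in the fit of all 26 samples, where 58 members were tested. In the fits of single cell types 54 passed the filter in monocytes, 36 in SPMs and 35 in lung macrophages. Some members, such as Hist1h3b and Hist1h3g, thus entered through the monocyte libraries alone, as others did through the lung libraries. For those the direction was set by the filter, so the counts below are a description of levels. Against WT monocytes, WT SPMs had 26 members lower and 2 higher, while 20.1% of all tested genes were called lower and 21.8% higher. WT lung macrophages had 39 lower and 4 higher against WT monocytes (24.4% and 39.5% of all tested genes). Against WT SPMs they had 27 lower and 5 higher (23.2% and 39.1%). The median member differed by -0.999 (log2) in SPMs and by -2.26 in lung macrophages against monocytes, while the median of all tested genes was 0.00 and 0.34, and against SPMs the lung median was -0.94 for members and 0.41 for all genes. Of members at least 50% unique, 20, 27 and 16 were lower in these 3 contrasts and 2 were higher in each.

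Hist1h2bc was the member that went most strongly against the rest in SPMs, with 191 ± 49.5 CPM (SD, n = 4) against 18.9 ± 4.12 in WT monocytes on this common scale (log2 difference 3.33 ± 0.32 SE, edgeR adjusted p = 5.36e-09). Hist3h2a (H2A) was also called higher (0.70 ± 0.28, edgeR adjusted p = 0.049), while Hist3h2ba at 1.60 against 0.512 CPM was not, and with single libraries left out 1 to 3 members were called higher in place of 2. Those lower in SPMs with the smallest p were Hist1h2ap by 2.39, the linker gene Hist1h1b by 2.91 and Hist1h2ao by 2.32 (log2). Hist1h1b had 21.1 ± 3.38 CPM in WT monocytes and 2.78 ± 0.50 in WT SPMs.

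Hist1h1c was higher in lung macrophages, at 139 ± 19.1 CPM (SD, n = 5), than in monocytes at 49.4 ± 17.5 and SPMs at 28.1 ± 4.35. In the fit of lung libraries alone it was lowest in each genotype where epithelial markers were low. It had 137 CPM in WT replicate 5 (175 to 221 in the other WT) and 145 in ACKR2-/- replicate 4 (146 to 180 in the others). The part of epithelial cells in this level was not tested. The log2 differences of Hist1h1c were 1.49 ± 0.25 SE against monocytes and 2.30 ± 0.26 against SPMs, both called. The other members called higher, against both, were Hist1h4b and the Hist2h2aa2 and Hist2h3b genes described above. Hist2h2aa2 and Hist2h3b had 0 counts in every monocyte and SPM library. Hist1h4b had at most 3 counts in a WT monocyte library and 4 in a WT SPM library. These genes passed the filter through the lung libraries, so the direction of their calls was set by the filter. Hist1h4m was called higher against SPMs (4.08 ± 0.67 SE), at 2.40 CPM in lung macrophages and 0.143 in SPMs. Its near-identical copy Hist1h4n went the other way, at 1.42 and 4.10 CPM. Hist1h4m is only 14.2% unique, so a different division of shared reads and a difference in level cannot be told apart. Hist1h2ao went from 341 ± 64.8 CPM in monocytes to 1.19 ± 0.41 in lung macrophages, Hist1h2ap from 84.8 ± 9.84 to 2.10 ± 1.14, and Hist1h2ae, which is 75.5% unique, from 16.4 ± 1.42 to 1.07 ± 0.33. Hist1h2ao and Hist1h2ap are near-identical to each other, so their values are uncertain where tables may have been counted differently.

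Levels were set beside the annotated sequence past the stem-loop, as a description. Members whose model ran over 100 bases past the loop held 79.6% of member CPM in WT lung macrophages, 28.9% in WT SPMs and 32.4% in WT monocytes. Members whose model ended at the loop held 59.9% in WT monocytes, 24.8% in SPMs and 8.25% in lung macrophages. Members with no loop in the model held the largest share in WT SPMs, 46.3%, with 7.71% in monocytes and 12.1% in lung macrophages. Single genes carried the leading shares, Hist1h1c in the lung, Hist1h2ao in monocytes and Hist1h2bc, which has no loop in its model, in SPMs. The median level was 3.04 CPM per kb for the long models and 7.50 for the short models in WT monocytes, 1.08 and 1.33 in SPMs, and 1.39 and 0.797 in lung macrophages.

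**Figure D3:**
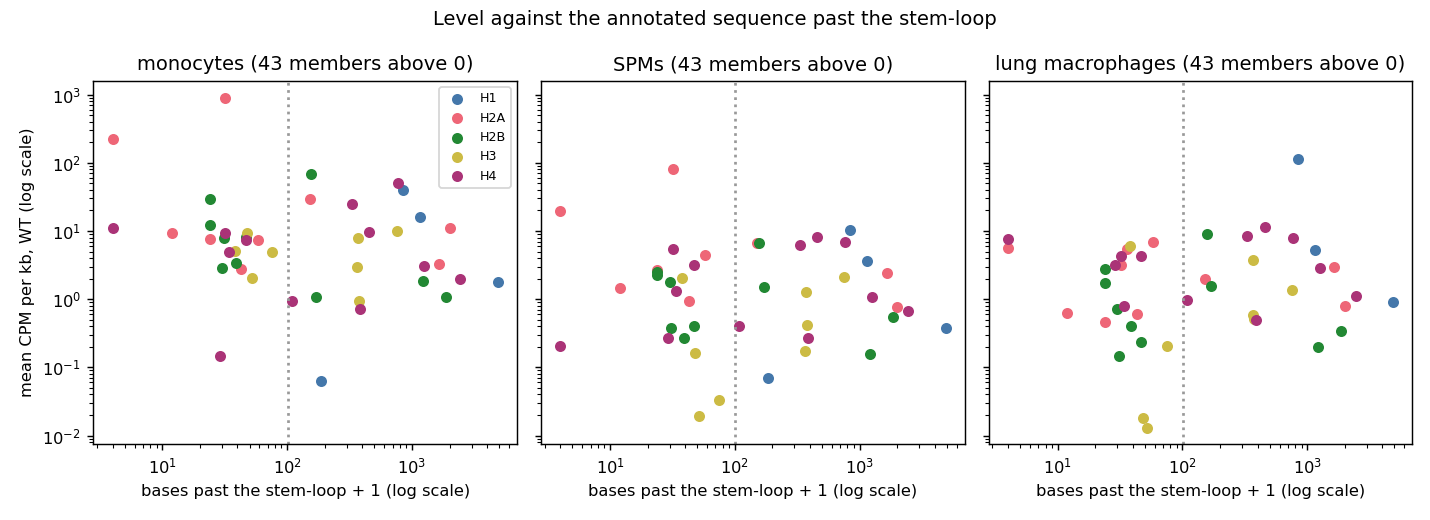
Mean CPM per kb in WT libraries against the bases of the gene model past the stem-loop plus 1 (both axes log), 43 members above 0 with a loop in each cell type, coloured by class. To the left of the dotted line at 100 bases stand Hist1h2ao and Hist1h2ap, the highest points in monocytes, and to its right Hist1h1c, the highest point in lung macrophages.

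The genotypes were compared within each cell type. In monocytes 54 members passed the filter on low counts, 0 of them were called higher in ACKR2-/- and 1 was called lower, while 0.913% of all 13246 tested genes were called higher and 0.355% lower. At an unadjusted p under 0.05 there were 10 members higher and 3 lower (edgeR), beside 8.83% and 8.17% of all tested genes. DESeq2 called 1 member higher, the H4 gene Hist1h4j, and 2 lower, where it called 2.16% of all genes higher and 1.12% lower. In SPMs 36 members were tested and 0 were called in either direction (0.0308% of all tested genes called higher, 0.0154% lower). At an unadjusted p under 0.05, 1 member was higher and 5 lower (edgeR), beside 2.93% and 2.52% of all tested genes, and DESeq2 called 1 higher and 1 lower, beside 0.0905% and 0.0791% of all genes. In lung macrophages 35 members were tested and 0 were called, as were 0 of all 16824 genes (0% higher, 0% lower), with 1 member higher and 0 lower at an unadjusted p under 0.05 (edgeR), where 1.24% and 1.72% of all genes stood. DESeq2 called 0 members there, and 0.0467% of all genes higher and 0.017% lower.

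Hist1h4d, an H4 gene on chromosome 13, was the member called, lower in ACKR2-/- monocytes. Its values in WT monocytes were 47.3, 64.1, 59.4 and 57.4 CPM, and those in ACKR2-/- monocytes were 35.1, 35.3, 33.0 and 29.3 CPM. The groups did not overlap, and the ACKR2-/- libraries stood close together. Its log2 fold change was -0.78 ± 0.12 (SE), with an edgeR quasi-likelihood adjusted p of 0.00926. The exact two-sided permutation p was 0.0286, the smallest that 4 against 4 samples can give. Any gene without overlap between genotypes reaches that value, and this gene was picked after its values were seen, so the permutation adds no support. In the fit of all 26 samples, which shares 1 estimate of spread over the cell types, the value was -0.81 and the adjusted p was 0.813, so the call did not hold there. T cell markers, which were called higher in the same libraries as above, and mitotic genes, which summed to 3739 to 4988 CPM in ACKR2-/- against 4872 to 5758 in WT monocytes with 0 of 25 called, moved with the same contrast, and their part in the Hist1h4d difference was not tested.

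In the other cell types Hist1h4d overlapped between genotypes. WT SPMs had 14.0, 7.07, 3.52 and 7.09 CPM and ACKR2-/- SPMs 3.49, 5.39, 5.02 and 7.35. WT lung macrophages had 4.34, 7.90, 5.63, 14.3 and 13 CPM, and ACKR2-/- lung macrophages 6.30, 7.09, 19.6, 11 and 15.3. The lung effect differed from the monocyte effect by 1.18 ± 0.48 SE (log2, edgeR interaction adjusted p = 0.679), so a difference between these cell types was not called.

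Of the other members, Hist1h2ab (H2A) was also lower in every ACKR2-/- monocyte library than in any WT library, without passing the threshold. WT monocytes had 3.32, 4.97, 4.90 and 4.64 CPM and ACKR2-/- monocytes 1.77, 2.96, 2.21 and 2.18. Its log2 fold change was -0.97 ± 0.25 (SE, edgeR adjusted p = 0.0854). DESeq2 called it, with an adjusted p of 0.0167.

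In the other direction, Hist1h2ae (H2A) had 20.5, 22.8, 21.8 and 18.6 CPM in WT monocytes and 40.0, 22.9, 30.2 and 30.9 in ACKR2-/- monocytes. The groups were apart by a narrow gap, and the fold change was 0.57 ± 0.16 SE (log2, edgeR adjusted p = 0.113). It was called, at an adjusted p of 0.0363, when ACKR2-/- replicate 2 was left out. Its divergent neighbour Hist1h2bg had 27.4, 35.9, 86.6 and 22 CPM in WT and 92.5, 15.4, 32.8 and 60.8 in ACKR2-/- monocytes, which overlapped.

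Hist1h4j, the member that DESeq2 alone called higher, had 0.391, 0.746, 0.556 and 0.559 CPM in WT and 5.22, 1.94, 0.737 and 1.12 in ACKR2-/- monocytes. The groups overlapped, replicate 1 of ACKR2-/- standing above the rest (log2 fold change 1.98 ± 0.58 SE, edgeR adjusted p = 0.126, DESeq2 adjusted p = 0.0311).

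Hist1h2an (H2A, 27.5% unique) had 0.716 to 1.56 CPM in WT and 1.58 to 3.71 CPM in ACKR2-/- monocytes (log2 fold change 0.85 ± 0.36 SE, edgeR adjusted p = 0.263). Members whose genotypes did not overlap were 2 above and 2 below in monocytes, 1 above and 2 below in SPMs, and 1 above and 0 below in lung macrophages. Over all tested genes, 4.94% and 5.25% were so placed in monocytes, 1.80% and 1.60% in SPMs, and 0.220% and 0.226% in lung macrophages. The member above in SPMs was Hist1h4m, which passed the filter through the ACKR2-/- libraries alone.

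**Figure D4:**
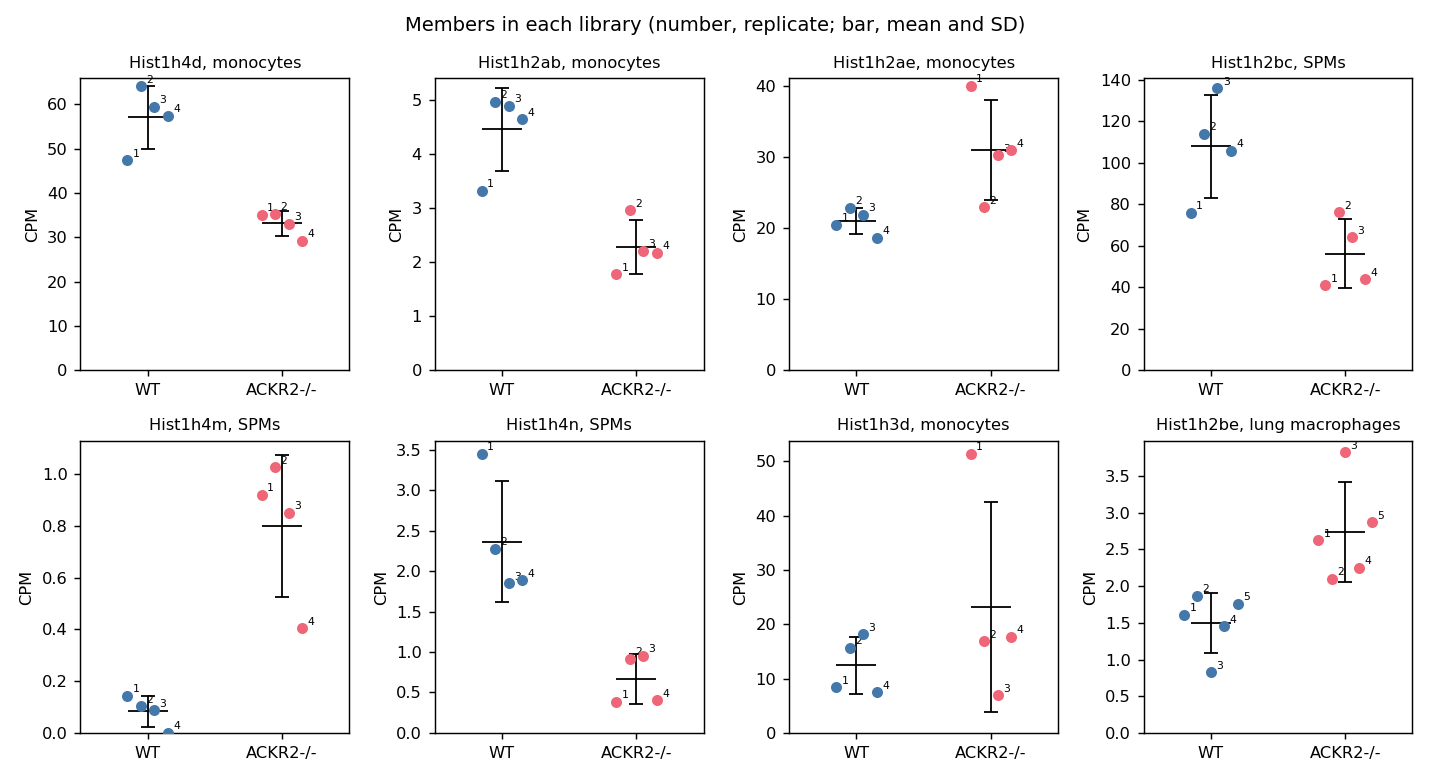
CPM of 8 member and cell type pairs in each library (points, numbered by replicate), with the mean and SD of each genotype. Hist1h4d fell from 47.3 to 64.1 CPM in WT to 29.3 to 35.3 CPM in ACKR2-/- monocytes, and Hist1h3d was high only in ACKR2-/- monocyte replicate 1, at 51.4 CPM.

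Apart from these genes, most tested members in monocytes had slightly higher values in ACKR2-/-. The fold change was above 0 for 45 of 54 members, with a median of 0.39 (log2), beside 50.4% of all genes and a median of 0.004. All 15 tested H2B genes were above 0 (median 0.41), as were 10 of 11 H4 genes (median 0.58), 8 of 10 H3 genes (median 0.40), 4 of 5 H1 genes (median 0.10) and 8 of 13 H2A genes (median 0.13). ACKR2-/- replicate 1 was the highest of the 8 libraries for 40 of the 54 members, and for 23.4% of all tested genes. Among members with long models it was highest for 18 of 20.

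That library carried much of the median. The H3 gene Hist1h3d had 8.40, 15.7, 18.1 and 7.50 CPM in WT and 51.4, 16.8, 6.89 and 17.7 in ACKR2-/- monocytes, replicate 1 being the high one. Without ACKR2-/- replicate 1 the median member fold change was 0.15, and without WT replicate 1 it was 0.26. WT replicate 1 was the lowest library for 28 of 54 members and for 10.0% of all tested genes. In ACKR2-/- replicate 1 the erythroid markers, those of red cell precursors, summed to 1281 CPM, against 72.7 to 534 in the other ACKR2-/- libraries and 273 to 357 in WT. Its mitotic genes were the lowest at 3739 CPM. Its S phase genes summed to 4346 CPM, against 3527 to 4161 in the other ACKR2-/- libraries and 3336 to 4803 in WT. Its monocyte markers were the lowest, at 5010 CPM against 6958 to 9569 in the other libraries. The part of these differences in cell make-up in the member values was not tested.

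In SPMs the shift was the other way. The fold change was below 0 for 32 of 36 tested members (median -0.39), and above 0 for 44.3% of all genes (median -0.05). All 11 tested H2A genes (median -0.42) and 8 of 9 H2B genes (median -0.40) were below 0, with 7 of 8 H4 genes and 3 of 4 each of H1 and H3. Without WT replicate 1 the median was -0.25, and without ACKR2-/- replicate 4, the lowest library for 14 of 36 members, it was -0.26. WT replicate 1 was the highest library for 14 members and for 37.5% of all tested genes, and its large peritoneal macrophage markers were the lowest of all, at 366 CPM against 949 to 2062 in the other 7 libraries. ACKR2-/- replicates 1 and 4 were the lowest libraries for 10 and 14 members, and for 7.73% and 8.56% of all tested genes. They had alveolar macrophage markers at 497 CPM each against 35.6 to 124 in the other 6, and neutrophil markers at 314 and 260 CPM against 16.8 to 126. The gene Chil3 is in both of these marker lists, so their sums are not independent. Erythroid markers were at 790 CPM in ACKR2-/- replicate 1 against 2.46 to 131 elsewhere. The part of these cells in the member values was not tested.

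**Figure D5:**
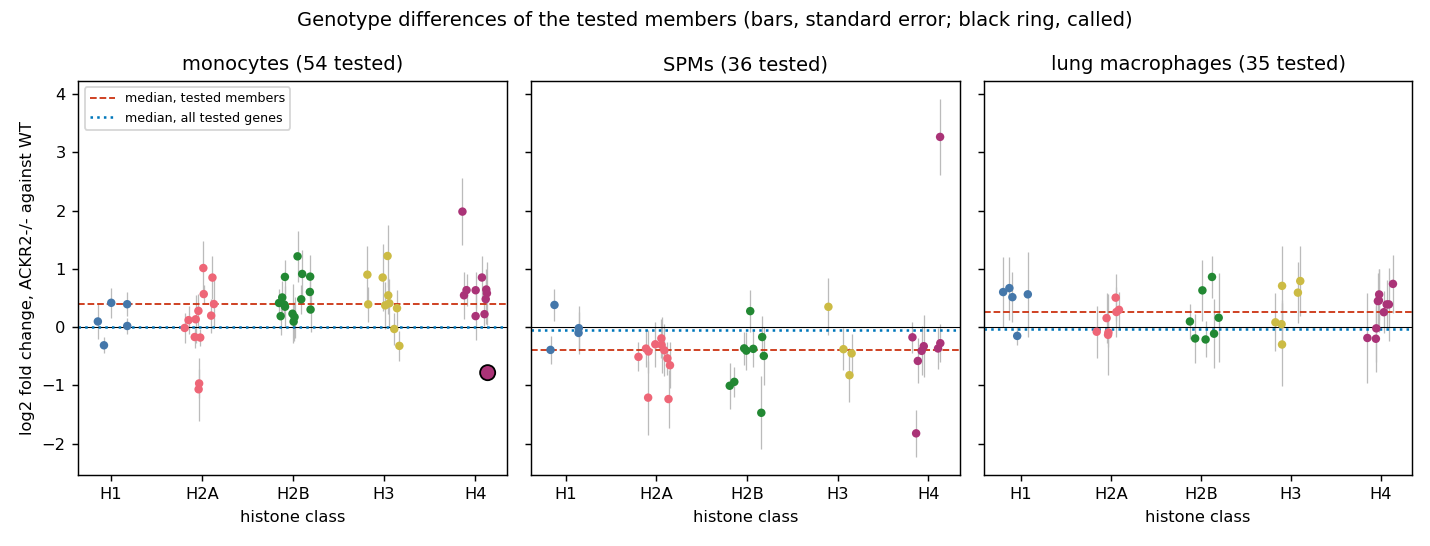
Log2 fold changes, ACKR2-/- against WT, of the tested members by histone class in the 3 cell types, with standard errors. The dashed line is the median of the members (0.39, -0.39 and 0.26) and the dotted line that of all tested genes, and the ringed point is Hist1h4d.

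The highest of these genes in SPMs, Hist1h2bc, had 76.0, 114, 136 and 106 CPM in WT and 40.9, 76.2, 64.0 and 43.9 in ACKR2-/-. The groups touched at 76 CPM, where ACKR2-/- replicate 2 was just above WT replicate 1. The fold change was -0.94 ± 0.26 SE (log2, p = 0.00393 before adjustment and 0.788 after, edgeR), and the exact permutation p was 0.0571. In monocytes its fold change was 0.38 ± 0.18 and in lung macrophages -0.21 ± 0.31, and the SPM and monocyte effects differed by -1.24 ± 0.41 SE (log2, edgeR interaction adjusted p = 0.374).

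Hist1h4m and Hist1h4n, the near-identical H4 genes, went opposite ways in SPMs. Hist1h4m had 3, 2, 1 and 0 counts in WT libraries and 24, 28, 33 and 15 in ACKR2-/- libraries, or at most 0.144 CPM against 0.404 to 1.03 CPM. Hist1h4n had 3.45, 2.27, 1.85 and 1.88 CPM in WT and 0.383, 0.917, 0.953 and 0.404 CPM in ACKR2-/- SPMs. Neither overlapped between genotypes.

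The fitted fold changes were 3.27 ± 0.65 SE for Hist1h4m and -1.82 ± 0.40 SE for Hist1h4n (log2, edgeR adjusted p = 0.341 and 0.664). DESeq2 called both, at adjusted p of 0.0239 and 0.0166, and edgeR without a filter called Hist1h4m at 0.0477. The fold change of Hist1h4m depends on the prior count, since each WT library was at or under 3 counts. In the filtered fit Hist1h4m entered through the ACKR2-/- libraries alone, so its direction there was set by the filter. Summed, the pair had 1.88 to 3.59 CPM in WT and 0.808 to 1.94 CPM in ACKR2-/- SPMs, which overlapped. In monocytes Hist1h4m and Hist1h4n each overlapped between genotypes, with 2.61 to 6.72 and 2.15 to 6.03 CPM in WT and 4.68 to 13.8 and 2.53 to 10.5 in ACKR2-/-. Because most of their stretches are shared, a true exchange between the copies and a different division of shared reads cannot be told apart.

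The H2B gene Hist1h2bq, 7.64% unique, was the other non-overlapping member in SPMs, with 0.480 to 1.14 CPM in WT and 0.268 to 0.464 in ACKR2-/- (log2 fold change -1.01 ± 0.40 SE, edgeR adjusted p = 0.788).

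In lung macrophages the fold change was above 0 for 24 of 35 tested members (median 0.26), beside 44.8% of all genes (median -0.04). ACKR2-/- replicates 3 and 5 were the highest library for 14 and 10 of the 35, and for 7.67% and 16.8% of all tested genes. Without replicate 3 the median was 0.13. It was 0.13 also over members at least 50% unique, and 0.44 without WT replicate 4. Without the library labelled WT replicate 5 and ACKR2-/- replicate 4, which lacked most epithelial signal, it was 0.33, and without WT replicates 3 and 5 it was 0.31. NK cell markers were above 0 for 7 of 7 genes (median 2.17), at 433 to 2718 CPM in ACKR2-/- against 187 to 505 in WT. T cell markers were above 0 for 10 of 10 (median 0.85, 96.5 to 612 against 117 to 378 CPM) and B cell markers below 0 for 8 of 8 (median -0.77, 176 to 627 against 338 to 2086 CPM). None of these markers was called, and their part in the member values was not tested.

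The lung member that did not overlap was the H2B gene Hist1h2be, which is 90.6% unique and shares 7.81% of its stretches with Hist1h1e. It had 1.61, 1.86, 0.827, 1.45 and 1.76 CPM in WT and 2.63, 2.10, 3.83, 2.25 and 2.87 in ACKR2-/- lung macrophages. The fold change was 0.86 ± 0.36 SE (log2, edgeR adjusted p = 1.00), and the exact two-sided permutation p, for this gene picked after its values were seen, was 0.00794, the smallest that 5 against 5 samples can give. Hist1h1c, the dominant lung member, had 137, 179 and 221 CPM as its lowest, median and highest WT values and 145, 161 and 180 in ACKR2-/-, which overlapped.

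Whether the genotype effect differed between cell types was tested with an interaction term over all 26 samples. No member passed an adjusted p of 0.05 in SPMs against monocytes, lung macrophages against monocytes or lung macrophages against SPMs (edgeR), beside 0.253%, 0.152% and 0.0393% of all tested genes. At an unadjusted p under 0.05 there were 1 member higher and 5 lower, 1 higher and 2 lower, and 5 higher and 1 lower, in that order. Of all tested genes, 3.66% were higher and 3.81% lower, 1.93% and 4.14%, and 2.50% and 3.65%. The opposite medians in monocytes and SPMs were therefore not matched by a called difference of any single member.

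Genes of DNA replication and of the histone supply line gave the context of these shifts. Of 34 S phase genes, 0 were called in any cell type. Their median fold change was 0.03 in monocytes (19 of 34 above 0), 0.21 in SPMs (29 of 33 above 0) and -0.27 in lung macrophages (6 of 34 above 0). Summed, S phase genes were at 3336 to 4803 CPM in WT and 3527 to 4346 in ACKR2-/- monocytes. In SPMs they were at 225 CPM in WT replicate 1, 378 to 457 in the other WT and 397 to 464 in the ACKR2-/- libraries, and without WT replicate 1 the median was 0.16 (24 of 33 above 0). In lung macrophages they were at 1112 CPM in WT replicate 3, 608 to 659 in the other WT and 584 to 754 in the ACKR2-/- libraries. Without WT replicate 3 the lung median was 0.08 (22 of 34 above 0), so its sign rested on that library. The sliding clamp gene Pcna, for example, had 340 ± 61.0 CPM (SD, n = 4) in WT and 336 ± 10.3 in ACKR2-/- monocytes, and the helicase subunit Mcm2 98.4 ± 18.4 and 86.3 ± 20.7. Rrm2, a subunit of the enzyme that makes deoxynucleotides, had 482 ± 89.8 and 495 ± 48.8 CPM.

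Mitotic genes had a median of -0.28 in monocytes (21 of 25 below 0), 0.65 in SPMs (23 of 25 above 0) and -0.65 in lung macrophages (24 of 24 below 0), and 0 were called. In SPMs they summed to 64.4 CPM in WT replicate 1, 110 to 151 in the other WT and 134 to 217 in the ACKR2-/- libraries, and the median was 0.50 without WT replicate 1. In lung macrophages they summed to 402 CPM in WT replicate 3, 93.0 to 144 in the other WT and 69.9 to 154 in the ACKR2-/- libraries, and without WT replicate 3 the median was 0.09 (14 of 24 above 0). The proliferation marker Mki67 had 189 ± 15.7 CPM in WT and 218 ± 21.2 in ACKR2-/- monocytes, 3.54 ± 1.17 and 3.21 ± 0.77 in SPMs, and 7.24 ± 3.41 and 5.65 ± 2.09 in lung macrophages. The topoisomerase Top2a had 241 ± 12.2 and 232 ± 21.5 CPM in monocytes.

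Of genes that act on histone mRNA and protein, 18 in monocytes, 17 in SPMs and 18 in lung macrophages of the list for 3′ end processing and decay were tested, and 0 were called (medians -0.12, -0.01 and 0.04). Slbp, which encodes the stem-loop binding protein, had 391 ± 63.7 CPM in WT and 439 ± 32.3 in ACKR2-/- monocytes, 60.4 ± 31.6 and 70.9 ± 5.61 in SPMs, and 155 ± 28.4 and 167 ± 11.4 in lung macrophages. Npat, the coactivator of histone gene transcription, had 9.35 ± 0.602 and 8.59 ± 1.24 CPM in monocytes. The lists for histone gene transcription (medians 0.02, 0.04 and -0.05 in monocytes, SPMs and lung macrophages) and for chaperones (-0.10, 0.24 and -0.02) had 0 called genes too.

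Histone variant genes outside the clusters were far more abundant in these libraries. They summed to 8200 to 9611 CPM in WT monocytes, 1165 to 2898 in WT SPMs and 6218 to 7672 in WT lung macrophages, with 0 called in any genotype comparison and medians of 0.09, 0.09 and 0.13. H2afz, which encodes the variant H2A.Z, had 2433 ± 302 CPM in WT and 2863 ± 320 in ACKR2-/- monocytes. H3f3b and H3f3a, which both encode H3.3, had 3080 ± 665 and 1268 ± 31.9 CPM in WT monocytes and 4496 ± 354 and 1297 ± 151 in WT lung macrophages. H2afx, which encodes the variant that is phosphorylated at DNA breaks, had 398 ± 38.8 CPM in WT monocytes, 7.71 ± 3.13 in WT SPMs and 32.3 ± 7.86 in WT lung macrophages.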

How the data were processed

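For each cell type the authors deposited 1 table of raw counts per gene, not normalized. The submitters' processing notes name HISAT2 2.0.5, featureCounts 1.5.0-p3, DESeq2 and the build mm10, with no role or order. The lung table has 5 summary lines that the other tables lack (56.3% of its counts), which were left out. Per library, 45.1% to 48.9% lay in no counted feature and 5.40% to 6.18% were reads with non-unique alignments. How many such reads the monocyte and SPM libraries had is unknown here. Libraries were poly-A selected and amplified by the SMARTer method. The gene length column deposited in the monocyte and SPM tables gave the exon length per kb, and all 67 members had the positions of GENCODE M21 (GRCm38). The stem-loop pattern was searched in GENCODE M21 transcripts. In all, 0 sample columns were left unmapped.

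Genotypes were compared per cell type in R 4.3.3 with edgeR 4.0.16: filterByExpr (minimum count 10, minimum total 15), TMM, the quasi-likelihood test, and Benjamini-Hochberg adjustment over all tested genes. A gene was called at adjusted p under 0.05 and absolute log2 fold change over 0.5. CPM used tested-gene counts and TMM factors of the cell type, except in WT contrasts, which used 1 fit of 17792 genes in all 26 samples, as did the interaction tests. The tests were tested on simulated data. Counting error only is covered by the floor of 3 counts. Among 44 replicate pairs, 0 were identical and the smallest chi-square per degree of freedom was 10.6. Same-numbered samples are not known to share a source.

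Members and lists were chosen with earlier results of these data known. Named were called members, the 2 highest per kb (mean over both genotypes) in each class and cell type, the 3 largest non-overlapping changes in each direction, the 3 of smallest p in each direction of each WT contrast, 3 testis genes, 11 listed reference genes and called list genes. The genotype values shown for Hist1h2bc in SPMs, Hist1h3d and Hist1h2bg in monocytes, Hist1h4j, the Hist1h4m and Hist1h4n sum, and the added Hist1h4d, Hist1h2ae, Hist1h4i and Hist1h2ap levels were chosen after their values were seen. Alternatives were DESeq2 1.42.0, RLE scaling, other filters, a robust fit, a replicate block and each library left out.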

Additional observations from a re-analysis of the deposited data

Results flagged for a closer look

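In all, 3 values stood apart from the others of their group by Dixon's gap test, among 52 groups of 4 or 5 samples tested, where chance flags about 1 in 20. The members' share of counts in ACKR2-/- monocytes had its high value in replicate 1, at 0.138% against 0.0977% to 0.103% in the other 3. Hist1h2an in ACKR2-/- monocytes was 3.71 CPM in the same library, against 1.58 to 1.94. The share of H4 genes in WT SPMs was 0.00512% in replicate 1, where the other 3 were at 0.00178% to 0.00229%. No member had a called difference of the genotype effect between cell types.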

How the results depend on the processing

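Of 610 values computed, 32 were as reported above and, of the others, 536 kept their direction, call or size, 0 reversed, 36 moved, 5 gained and 1 lost a call. In the fit of all 26 samples 0 members were called lower in ACKR2-/- monocytes (Hist1h4d -0.81, adjusted p 0.813). DESeq2 called 1 member higher and 2 lower in monocytes (Hist1h4j higher, Hist1h4d and Hist1h2ab lower), and 1 higher and 1 lower in SPMs (Hist1h4m and Hist1h4n). Without a filter 1 member was called higher in SPMs (Hist1h4m), and 1 was higher in WT SPMs against WT monocytes, where RLE scaling gave 4. Members at least 50% unique, an alternative chosen after seeing the data, gave 2 higher in lung macrophages against monocytes, and 2 higher and 16 lower against SPMs. Without the 2 members of highest count the shares in WT and ACKR2-/- were 0.0464% and 0.0602% in monocytes, 0.0105% and 0.00862% in SPMs, and 0.0111% and 0.0136% in lung macrophages.

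With each library left out in turn, 0 to 1 members were called higher in monocytes (1 without ACKR2-/- replicate 2 or 3) and 1 to 1 lower, and 1 to 3 were higher in WT SPMs against WT monocytes. Median fold changes ranged from 0.15 to 0.51 in monocytes, -0.56 to -0.25 in SPMs and 0.13 to 0.44 in lung macrophages. With a replicate block the medians were 0.36, -0.41 and 0.27 and 1 member, Hist1h4d, was called, so the block changed no call. Same-numbered samples did not deviate together in every pair (correlations from -0.13 to 0.35 in monocytes, -0.11 to 0.00 in SPMs and -0.10 to 0.68 in lung macrophages). Only monocyte replicate 2 (0.35) and lung replicate 1 (0.68) correlated best with their own number. Such correlations cannot decide whether same-numbered samples share a source, so pairing stayed unknown. The causes of these changes were not tested.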
